A study of Mus musculus with 2 samples.

Results

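The steroid hormone receptor genes described here are Nr3c1, Nr3c2, Esr1, Esr2 and Pgr, which encode the glucocorticoid receptor, the mineralocorticoid receptor, estrogen receptors alpha and beta, and the progesterone receptor of the mouse. They were chosen by name as 5 of the 21951 protein-coding genes, and of the 55450 genes in all, of the GENCODE M21 annotation. DNase-seq maps open chromatin by where DNase I, a nuclease, can reach the DNA. It was applied to urinary bladder of B6CASTF1/J males, F1 hybrids of C57BL/6J and CAST/EiJ, at an age of 36 days. Both libraries, replicate 1 and replicate 2, belong to the same group, the labels number their donors as different males, and there is no other condition. No test between conditions could therefore be made, and values are given for each library or as mean ± SD over n = 2 libraries. The measurement is accessibility of DNA, not RNA or protein of the receptors.

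Steroid hormone receptors are transcription factors that a ligand switches on. Without hormone, the receptors for corticosteroids are held by heat shock protein chaperones, and with hormone they move to the nucleus and bind DNA as dimers, at paired short repeats, where they recruit coactivators or corepressors. The glucocorticoid receptor is made in most cell types, the mineralocorticoid receptor is best known in epithelia that transport sodium and in smooth muscle, and estrogen receptors have been described in the bladder of rodents. Progesterone receptor is a well known target gene of estrogen receptor alpha in the reproductive tract.

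In the deposited peak lists, replicate 1 had 38674 peaks and replicate 2 had 47661 in the shorter of its lists, which is used throughout unless the longer one is named. The gene body and the 50 kb on either side of the 5 receptor genes held 19 peaks in replicate 1 and 36 in replicate 2. Each peak has a height, a signal value whose unit is not stated and and the read depth behind it is unknown. Low heights were whole multiples of a step, 0.0113 for replicate 1 and 0.00893 for replicate 2, within a tolerance of 0.05 of a step. Every height is the authors' own value per peak. A bladder wall mixes urothelium, smooth muscle, fibroblasts, vessels and other cells, and fewer cells of a type and less accessibility per cell cannot be told apart here. Among marker genes, 10 of 11 urothelial genes had a peak within 500 bases of an annotated transcription start in both libraries, against 0 of 4 liver genes. The same held for 4 of 8 smooth muscle genes, 3 of 6 fibroblast genes and 2 of 5 endothelial genes, against 56.2% of protein-coding genes. The smooth muscle, fibroblast and endothelial counts thus lie near or below that share. Those with such a peak were Myh11, Mylk, Tpm2 and Smtn, then Col1a1, Pdgfra and Fbln1, and Kdr and Vwf. The smooth muscle genes Acta2, Actg2, Des and Cnn1, the fibroblast genes Col1a2, Dcn and Lum and the endothelial genes Pecam1, Cdh5 and Tek had none in either library. In the longer lists the counts were 6 of 8 smooth muscle, 4 of 6 fibroblast and 2 of 5 endothelial genes, against 61.3% of protein-coding genes.

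The corticosteroid receptor genes carried strong peaks within 500 bases of their starts in both libraries, Esr1 weak ones, and Esr2 and Pgr weak ones in replicate 2 only. A peak within 500 bases of any annotated start of the gene is called a start peak here. The strongest start peak of Nr3c2 had a height of 3.92 in replicate 1 and 4.44 in replicate 2, and that of Nr3c1 had 4.23 and 3.52. The strongest start peak of Esr1 had 0.975 and 0.777. Esr2 had no start peak in replicate 1 and one of 0.580 in replicate 2, and Pgr none and one of 0.330. The order of the heights therefore places Nr3c1 and Nr3c2 above Esr1 in both libraries, and Nr3c1 and Nr3c2 exchange places between the libraries.

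To compare genes within a library, the strongest start peak of each gene was ranked among all start peaks of that library and expressed as a percentile, which is 0 where a gene has none. The percentile was 86.1 ± 4.03 for Nr3c2, 83.0 ± 5.41 for Nr3c1 and 16.1 ± 0.666 for Esr1 (SD, n = 2 libraries each). It was 0 in replicate 1 and 6.09 in replicate 2 for Esr2, and 0 and 0.211 for Pgr. The median over all protein-coding genes was 31.7, with quartiles of 0 and 73.7. Nr3c2 and Nr3c1 thus lay above the upper quartile, while Esr1, Esr2 and Pgr lay below the median of all genes. For Nr3c1 the rank depends on the window, as 250 bases on either side gave a percentile of 57.8. The quartiles over all genes were not computed for that window. The difference between Nr3c2 and Nr3c1 was smaller than the spread between libraries.

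In counts, 3 of the 5 receptor genes carried start peaks in replicate 1 and replicate 2 alike, against 56.2% of protein-coding genes, which is near the background. Replicate 1 had a start peak at 3 of the 5, against 57.8% of protein-coding genes, and replicate 2 at all 5, against 58.5%. In the longer, less strict lists 4 of the 5 had one in both libraries, against 61.3%. Pgr was the gene gained, with longer-list heights of 0.442 in replicate 1 and 0.330 in replicate 2. Esr2 remained without a start peak in replicate 1. The start peaks of Esr1 have the same heights in the longer lists, where they rank at a percentile of 30.7 among more and lower peaks, and they are not among the stronger 50% of peaks.

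**Figure D1:**
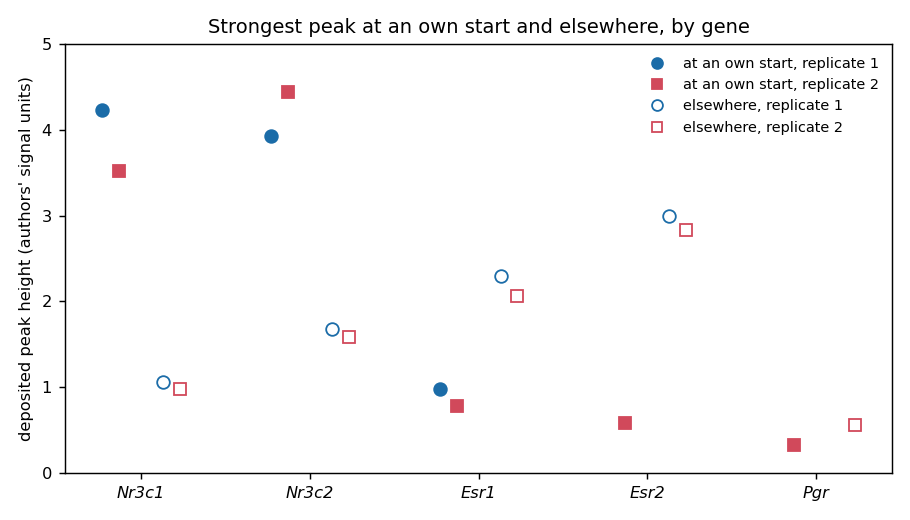
Height of the strongest peak at an own start (within 500 bases) and of the strongest peak elsewhere in the gene body and 50 kb flanks, for each receptor gene and library, on the deposited height scale (unit not stated). Nr3c1 and Nr3c2 are highest at their own starts, with 4.23 and 3.92 in replicate 1, while Esr1 and Esr2 are highest away from them, with 2.29 and 2.99.

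Nr3c1 (ENSMUSG00000024431.15), the gene of the glucocorticoid receptor that carries the response to corticosterone, spans chr18:39410545-39519421 on the minus strand of GRCm38, 109 kb, with 9 annotated starts. Its start peaks formed a cluster of 2.94 kb at chr18:39488881-39491820, with 6 peaks in replicate 1 and 5 in replicate 2. The strongest site, chr18:39491601-39491820, lay 410 bases upstream of the start of transcript Nr3c1-205 and had a height of 4.23 in replicate 1 and 3.52 in replicate 2. These heights ranked at percentiles 92.6 and 90.2 of all peaks of their libraries. Next came chr18:39489415-39490140, which covers the starts of Nr3c1-201 and Nr3c1-208, with 2.60 and 2.37. The neighbouring shared sites at chr18:39490990-39491260 (1.76 and 1.61) and chr18:39488881-39489320 (1.59 and 1.52), both overlapping untranslated exon sequence, were lower, so that in both libraries accessibility was highest at the upstream end of the cluster.

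The 9 starts of Nr3c1 were not equally open. The 6 starts in the cluster had a peak in both libraries. The most upstream start, that of Nr3c1-209 at chr18:39519421, lies 28.1 kb from the start of Nr3c1-205 and had no peak in any list of either library and no base with a listed FDR. The starts of Nr3c1-202 and Nr3c1-204, at the downstream end, were covered only in the longer list of replicate 2, with a height of 0.464. Outside the cluster, 1 site was shared by both libraries, in an intron at chr18:39460928-39461091, with 1.05 in replicate 1 and 0.929 in replicate 2. The strongest start peak was 4.01 times the strongest other peak of the gene and its flanks in replicate 1 and 3.58 times in replicate 2. Because the strongest site lies 410 bases from its nearest start, a window of 250 bases on either side misses it and gives a start percentile of 57.8.

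Nr3c2 (ENSMUSG00000031618.13) encodes the mineralocorticoid receptor, which binds aldosterone and glucocorticoids. It spans chr8:76899442-77245012 on the plus strand, 346 kb, with 7 annotated starts. The peaks around its upstream starts also formed a cluster, of 3.32 kb at chr8:76898881-76902200, with 4 peaks in replicate 1 and 8 in replicate 2. Of these, 2 and 5 are start peaks of Nr3c2, and the others lie between its starts.

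The strongest site of the gene and its highest site away from the starts are shown first, since the heights below turn on them. Both are given 5′ to 3′ on the plus strand of GRCm38 patch 6 from RefSeq, which represents C57BL/6J, with bases inside a footprint of either library in capitals. A footprint is a short stretch within a peak that the authors called as protected from DNase I.
Nr3c2 start site chr8:76901981-76902200: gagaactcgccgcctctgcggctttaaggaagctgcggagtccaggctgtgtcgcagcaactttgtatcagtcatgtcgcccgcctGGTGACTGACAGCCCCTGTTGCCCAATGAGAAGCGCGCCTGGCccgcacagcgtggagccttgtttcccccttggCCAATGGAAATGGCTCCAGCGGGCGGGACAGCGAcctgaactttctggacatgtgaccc
Nr3c2 intron site chr8:77132881-77133140: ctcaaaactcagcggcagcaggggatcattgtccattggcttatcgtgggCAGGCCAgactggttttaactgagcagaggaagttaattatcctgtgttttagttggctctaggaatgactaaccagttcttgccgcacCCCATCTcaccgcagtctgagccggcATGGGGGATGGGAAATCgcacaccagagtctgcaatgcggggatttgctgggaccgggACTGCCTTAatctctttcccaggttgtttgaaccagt

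The site at chr8:76901981-76902200 had a height of 3.92 in replicate 1 and 4.44 in replicate 2, percentiles 90.6 and 94.9 of all peaks. It lay 198 bases upstream of the start shared by Nr3c2-203 and Nr3c2-208, inside the transcripts that begin farther upstream. The most upstream start, that of Nr3c2-207, had a lower site at chr8:76898881-76899740, with 1.59 and 1.29. Between them lay chr8:76900561-76901177, with 1.46 and 1.00, and chr8:76901601-76901708, with 0.873 and 0.616. The sites between chr8:76898881 and chr8:76901177 also lie at annotated starts of Gm10649, a long non-coding RNA transcribed from the opposite strand, so they cannot be credited to Nr3c2 alone. The strongest site does not. In both libraries the downstream end of the cluster was therefore higher than the most upstream start.

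Away from its own starts, the highest shared site of Nr3c2 was the intron site at chr8:77132881-77133140, 234 kb downstream of the most upstream start and 5.00 kb from the start of Nr3c2-205. It had 1.68 in replicate 1 and 1.58 in replicate 2. A lower shared site at chr8:77276921-77277095, inside the neighbouring gene Arhgap10, had 0.782 and 0.616. The starts of Nr3c2-201 and Nr3c2-205 had no peak in any list. The strongest start peak was 2.34 times the strongest other peak in replicate 1 and 2.81 times in replicate 2.

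**Figure D2:**
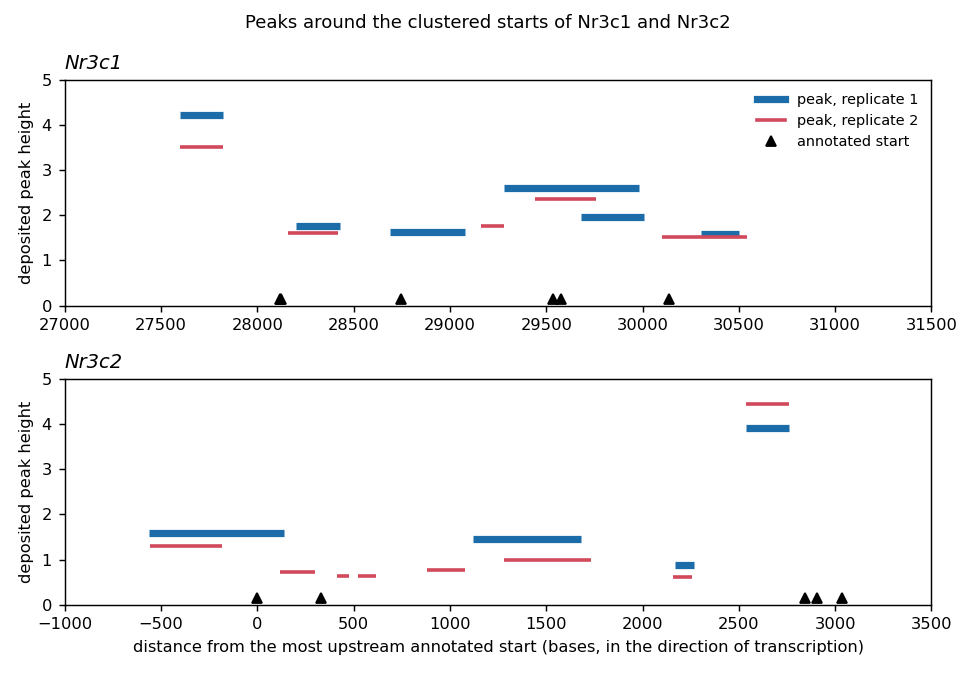
Deposited peak heights (unit not stated) across the start clusters of Nr3c1 and Nr3c2, each bar spanning 1 peak, against distance in bases from the most upstream annotated start in the direction of transcription, with annotated starts as triangles. In Nr3c1 the highest peak (4.23 in replicate 1 and 3.52 in replicate 2) stands at the upstream end of the cluster, and in Nr3c2 (3.92 and 4.44) at its downstream end.

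Esr1 (ENSMUSG00000019768.16) encodes estrogen receptor alpha, which carries most known effects of estrogen in the uterus. It spans chr10:4611593-5005614 on the plus strand, 394 kb, with 9 annotated starts. It had 3 peaks in replicate 1 and 4 in replicate 2, which form 3 shared sites. The strongest site and the site at the start of Esr1-202 and Esr1-203 are shown because they contrast an intron with a start of the same gene, with the same use of capitals.
Esr1 intron site chr10:4621001-4621240: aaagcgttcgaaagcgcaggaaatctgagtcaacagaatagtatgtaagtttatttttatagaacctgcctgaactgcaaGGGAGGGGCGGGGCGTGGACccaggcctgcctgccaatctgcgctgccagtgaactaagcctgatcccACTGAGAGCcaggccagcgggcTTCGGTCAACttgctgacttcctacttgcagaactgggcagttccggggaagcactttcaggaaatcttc
Esr1 start site chr10:4709981-4710140: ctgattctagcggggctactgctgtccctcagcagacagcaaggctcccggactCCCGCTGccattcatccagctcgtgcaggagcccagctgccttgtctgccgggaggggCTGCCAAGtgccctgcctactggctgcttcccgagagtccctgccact

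The intron site had a height of 2.29 in replicate 1 and 2.06 in replicate 2, percentiles 71.5 and 75.9 of all peaks, and lay 9.10 kb downstream of the nearest start. The site at the start of Esr1-202 and Esr1-203, which lies 98.6 kb inside the gene, had 0.748 and 0.571. The site at the start of Esr1-205, chr10:4712301-4712880, which overlaps a coding exon, had 0.975 and 0.777. The intron site was thus 2.35 times the strongest start peak in replicate 1 and 2.66 times in replicate 2, the reverse of the order in Nr3c1 and Nr3c2.

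The 5 most upstream starts of Esr1 lie within 428 bases of each other and had no peak in the shorter lists. In the longer lists replicate 1 had a peak of 0.873 there, and a second site just downstream, chr10:4612428-4612650, had 0.748 in replicate 1 and 0.723 in replicate 2. These heights are within the range of the start peaks inside the gene that the shorter lists do hold, 0.571 to 0.975. The lowest deposited FDR in the windows of these upstream starts was 0.00649 in replicate 1 and 0.00491 in replicate 2, against 8.15e-07 and 1.43e-04 at the start of Esr1-202. A longer-list site at chr10:4598381-4598560, upstream of the gene, had 0.998 and 0.848. The starts of Esr1-206 and Esr1-208 had no peak in any list.

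Esr2 (ENSMUSG00000021055.14) encodes estrogen receptor beta and spans chr12:76120419-76177259 on the minus strand, 56.8 kb, with 2 annotated starts. It had 3 shared sites, none at a start and all upstream of the gene. They are shown because they carry the accessibility found near Esr2 in both libraries. The sequences are those of the plus strand, so that transcription of Esr2 runs from right to left.
Esr2 site nearest the start chr12:76177921-76178100: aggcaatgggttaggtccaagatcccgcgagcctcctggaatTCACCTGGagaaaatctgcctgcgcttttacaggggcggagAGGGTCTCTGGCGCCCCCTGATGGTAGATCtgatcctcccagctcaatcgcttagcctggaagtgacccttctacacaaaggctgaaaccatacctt
Esr2 strongest upstream site chr12:76196121-76196320: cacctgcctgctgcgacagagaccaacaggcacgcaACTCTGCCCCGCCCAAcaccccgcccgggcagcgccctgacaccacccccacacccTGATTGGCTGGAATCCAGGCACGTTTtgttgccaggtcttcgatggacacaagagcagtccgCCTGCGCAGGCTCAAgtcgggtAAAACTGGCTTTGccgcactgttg
Esr2 farther upstream site chr12:76196701-76196920: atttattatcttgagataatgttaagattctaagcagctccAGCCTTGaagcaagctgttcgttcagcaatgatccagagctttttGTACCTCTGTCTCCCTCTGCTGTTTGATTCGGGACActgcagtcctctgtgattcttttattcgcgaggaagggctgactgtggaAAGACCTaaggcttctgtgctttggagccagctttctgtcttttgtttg

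The strongest site, 18962 bases upstream of the start, had a height of 2.99 in replicate 1 and 2.83 in replicate 2, percentiles 81.8 and 85.1 of all peaks. Its neighbour, 19552 bases upstream, had 1.42 and 1.40. The site 752 bases upstream of the start had 1.27 and 0.946. No annotated start of any gene lay within 500 bases of these 3 sites, and which gene each of them acts on was not measured.

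At the upstream start of Esr2 itself, replicate 2 had peaks of 0.580 and 0.464, while replicate 1 had no peak in either list and no base with a listed FDR, that is, none at or below 0.05. The start of Esr2-203, 9.54 kb further into the gene, had no peak in any list. The remaining peaks of Esr2 were found in replicate 2 only, with 0.866 inside the neighbouring gene Syne2 and 0.545 and 0.518 upstream. In replicate 2 the strongest upstream peak was 4.88 times the strongest start peak. A start window of 1000 bases takes in the site 752 bases upstream and gives a mean start percentile of 29.4 for Esr2, above the 18.4 of Esr1 with that window.

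Pgr (ENSMUSG00000031870.16) encodes the progesterone receptor and spans chr9:8899833-8968611 on the plus strand, 68.8 kb, with 3 annotated starts. It had no peak in replicate 1 and 3 in replicate 2, so no site was shared in the shorter lists. The peak at its starts, chr9:8900581-8900654, had a height of 0.330. The others had 0.518, in an intron 64.3 kb downstream of the nearest start, and 0.554, beyond the end of the gene. The start windows nevertheless held bases with a listed FDR in both libraries, down to 0.00270 in replicate 1 and 3.18e-04 in replicate 2. In the longer lists, 5 sites of Pgr were shared by both libraries.

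**Figure D3:**
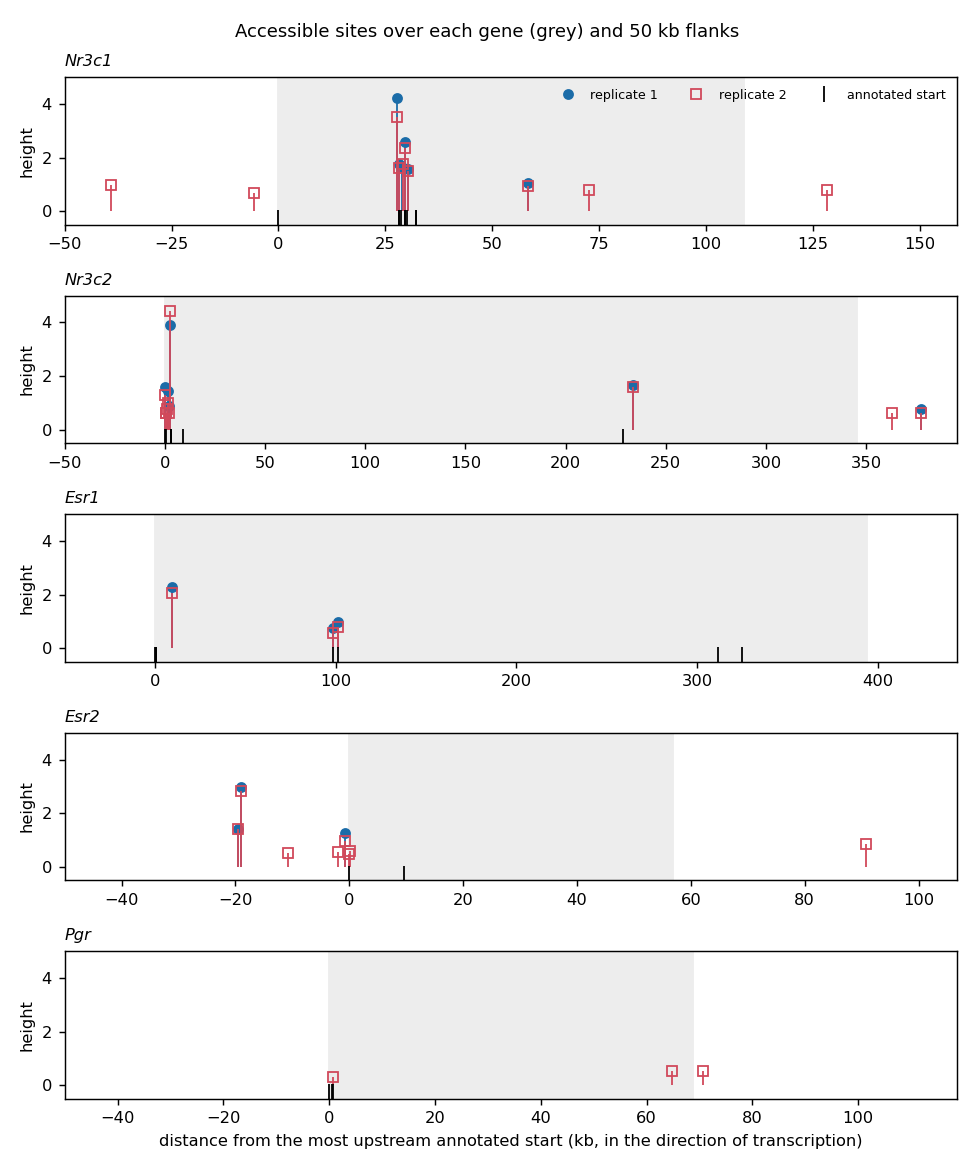
Accessible sites of each receptor gene in both libraries, drawn against distance from its most upstream annotated start in kb in the direction of transcription, with the gene in grey, starts as black ticks and point height giving the deposited peak height (unit not stated). Sites of Nr3c1 and Nr3c2 crowd in clusters of 2.94 and 3.32 kb, while the highest points of Esr1 and Esr2 stand apart from the starts.

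Seen over single starts, 13 of the 30 distinct starts of the receptor genes had a peak in both libraries, against 44.4% of all 93513 distinct starts of protein-coding genes. They were 6 of 9 in Nr3c1, 5 of 7 in Nr3c2, 2 of 9 in Esr1, 0 of 2 in Esr2 and 0 of 3 in Pgr. Starts of 1 gene can share a window and a peak, so they are not independent of each other. Replicate 1 covered 13 of the 30 starts and replicate 2 covered 16. The share of all starts covered in each single library was not computed.

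The base composition of the starts was set beside their accessibility. The ratio of observed to expected CpG dinucleotides in the 500 bases on either side had a median of 0.651 over the 13 receptor starts with a peak in both libraries, with a range of 0.411 to 1.01. Over the other 17 receptor starts it had a median of 0.359, with a range of 0.0931 to 0.572. Windows of neighbouring starts overlap within a gene, so these starts are not separate observations. For all starts of protein-coding genes the medians were 0.745 with such a peak and 0.240 without one. The most upstream starts had ratios of 0.317 for Nr3c1, 0.730 for Nr3c2, 0.331 for Esr1, 0.572 for Esr2 and 0.478 for Pgr. Of these, the start of Nr3c2 alone had a shared peak.

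Over the gene body and flanks, the 5 genes had 35 separate sites, of which 17 (48.6%) were found in both libraries, against 61.7% of all 51228 sites. Nr3c1 had 5 shared sites, Nr3c2 had 6, Esr1 had 3, Esr2 had 3 and Pgr had 0, against a median of 3 over protein-coding genes with quartiles of 1 and 6. Without replicate 1, Nr3c1 had 10 sites, Nr3c2 had 10, Esr1 had 3, Esr2 had 8 and Pgr had 3. Per 100 kb, Nr3c1 had 2.39 shared sites, Esr2 had 1.91, Nr3c2 had 1.35, Esr1 had 0.607 and Pgr had 0, against a median of 2.50. All 5 genes thus had fewer shared sites per length than the median gene. Among the 4 receptor genes with a shared site, the strongest was at an own start in 2, against 32.8% of protein-coding genes with a shared site. With a window of 250 bases it was at an own start in Nr3c2 alone.

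The libraries gave like heights where both had a peak. At the 17 shared sites, the median height was 1.59 in replicate 1 and 1.40 in replicate 2, against 1.67 and 1.54 at all 31612 shared sites. After the heights of each library were divided by the median of its shared sites, the log2 ratio of replicate 2 over replicate 1 at the receptor sites had a median of -0.07 and an SD of 0.19 (n = 17 sites), against a median of 0.03 and an SD of 0.32 at all shared sites. It ran from -0.44, at the site of Nr3c2 over a start of Gm10649, to 0.29, at the strongest start site of Nr3c2. After this scaling all 17 ratios were within 0.5 of 0 and 5 were above 0. With the heights as deposited, 15 of the 17 were within 0.5 of 0 and 1 was above 0. The median as deposited was -0.18, against -0.08 at all shared sites. At all shared sites the quartiles of this ratio were -0.18 and 0.23 after scaling and -0.29 and 0.12 as deposited. By both medians the receptor sites thus leaned more to replicate 1 than all shared sites did. The shares of all shared sites within 0.5 of 0 and above 0 were not computed.

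Peaks found in 1 library were mostly low. Of the 19 receptor peaks of replicate 1, 18 overlapped a peak of replicate 2, against 86.1% of all its peaks. Of the 36 receptor peaks of replicate 2, 19 overlapped a peak of replicate 1, against 69.6%. The 17 sites found in replicate 2 only had a median height of 0.643, with a range of 0.330 to 1.75. Of these 17, 9 overlapped a peak in the longer list of replicate 1. The same share over all sites found in replicate 2 only was not computed. The highest, 1.75, lies in the start cluster of Nr3c1, where the libraries divide the open stretch into peaks at different places.

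**Figure D4:**
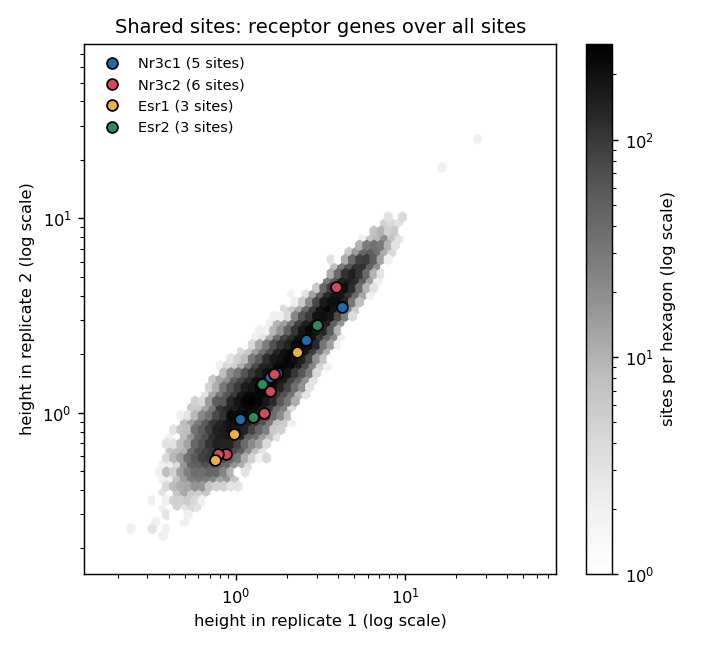
Height of shared sites in replicate 2 against replicate 1, on log axes (deposited heights, unit not stated), with the 17 receptor sites as points coloured by gene over the density of all 31612 shared sites in grey. All 17 points lie inside the band of all sites, with scaled log2 ratios from -0.44 to 0.29.

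Footprints were as dense in the receptor peaks as elsewhere in replicate 1 and sparser in replicate 2. In replicate 1, 16 of 19 receptor peaks held at least 1 footprint, 84.2%, against 84.2% of all peaks, and the density was 11.4 per kb, against 11.5. In replicate 2, 23 of 36 receptor peaks held one, 63.9%, against 83.5% of all peaks, and the density was 8.38 per kb, against 11.4. In the 17 shared sites, 30 of the 58 footprints of replicate 1 overlapped one of replicate 2, 51.7%, against 60.9% over all shared sites. In the other direction 32 of 53 did, 60.4%, against 58.8%. Replicate 2 also has the 17 sites, mostly low, that replicate 1 lacks, and their part in its lower density was not tested.

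Single sites differed more. The strongest site of Nr3c1 had 5 footprints in each library, the widest of 41 bases in replicate 1 and 39 in replicate 2 at the same place. Only 0.808% and 1.26% of all footprints of these libraries were as wide. In the start site of Nr3c2, all 4 footprints of replicate 1 overlapped one of replicate 2. The widest covered 43 bases in replicate 2, a width that 0.634% of its footprints reached, while the stretch was split into footprints of 10 and 20 bases in replicate 1. In the strongest upstream site of Esr2, all 4 footprints of replicate 1 overlapped one of replicate 2 as well. The start site of Esr1-202 had footprints in replicate 1 alone. The footprints of 41, 39 and 43 bases were picked for their width from 58 receptor footprints of replicate 1 and 53 of replicate 2. Their small shares alone therefore do not mark these sites as unusual.

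The 17 shared sites were searched on both strands for the letters that steroid receptors and other factors are known to bind. The element of the glucocorticoid, mineralocorticoid and progesterone receptors, AGAACA and TGTTCT with 3 bases between, was found in 0 of the 17, against 0.00633% of all shared sites, and with 1 mismatch in 0, against 0.101%. The element of the estrogen receptors, AGGTCA and TGACCT with 3 bases between, was found in 0 of the 17 and in 0 of all 31612 shared sites, and with 1 mismatch in 0, against 0.0886%. No match says only that these letters are not in these sites. A single arm of the steroid element, AGAACA, was found in 0 of the 17, against 13.3%, and a single arm of the estrogen element, AGGTCA, in 3, against 12.5%.

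Among 19 patterns searched, the GC box and the CCAAT box were in the most receptor sites. The GC box GGGCGG, bound by Sp1 and related factors, was in 11 of the 17 sites, against 43.9% of all shared sites, and the CCAAT box, bound by the factor NF-Y, was in 7, against 28.9%. Receptor sites run up to 860 bases, and these shares are not matched for length. In the printed start site of Nr3c2, the CCAAT box at bases 109 to 113, counted from the left end, lay in footprints of both libraries, and the one at bases 162 to 166 in a footprint of replicate 1. Of stretches of that length centred on shared sites, 25.3% held the motif. In the strongest upstream site of Esr2, an inverted CCAAT box at bases 95 to 99 lay in footprints of both libraries, and 23.6% of stretches of that length held the motif.

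The site of Esr2 nearest the start held 1 match to the core of the CTCF element on the minus strand at bases 96 to 107, in footprints of both libraries. Of stretches of that length at shared sites, 5.61% held it. CTCF is a factor that shapes chromosome loops. In the intron site of Esr1, a GC box at bases 86 to 91 lay in footprints of both libraries, and an AP-1 element, TGANTCA, at bases 26 to 32 lay in none. A match is a description of the letters and does not show that a factor was bound. In the promoter windows that RefSeq gives for Nr3c2, Esr1, Esr2 and Pgr, neither receptor element was present, against 0.00913% of 32851 promoters for the steroid element and 0.0213% for the estrogen element.

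The genes around the receptors in their pathways were set beside them in the same measure. In all, a start peak was found in both libraries at 65 of 90 such genes, against the same 56.2% of protein-coding genes. All 10 chaperone genes that hold unliganded receptors had one, with Hspa8 at a start percentile of 99.6, Hsp90ab1 at 98.5 and Stub1, a ubiquitin ligase that works with these chaperones, at 97.7. Of 11 coregulators 9 had one, led by Carm1 at 97.7, Ncoa2 at 96.5 and Ep300 at 80.0, while Ppargc1a had none in either library. Each value is a mean over both libraries.

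Genes known to respond to the hormones were counted by receptor, with no test. The lists share genes, so their counts are not independent of each other. Sgk1 and Tsc22d3 are in both the glucocorticoid and aldosterone lists, Nrip1 is in the estrogen and coregulator lists, and Fkbp5 is also a chaperone entry. All 15 genes of the glucocorticoid list had a start peak in both libraries. They were led by Ddit4 at 97.7, the clock gene Per1 at 96.7 and Fkbp5, a chaperone partner of the receptor, at 95.5. Of 10 genes of the aldosterone list 7 had one, among them Usp2 at 98.0 and the kinase gene Sgk1 at 94.5. Scnn1a, a subunit of the epithelial sodium channel, had none. Of the other subunits of that channel, Scnn1g had one in both libraries, at 89.7, and Scnn1b had one in replicate 1 only.

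Of 12 genes of the estrogen list 8 had one in both libraries, led by Ctsd at 95.7, Xbp1 at 93.0 and Ccnd1 at 77.6, while Greb1, Ltf and Igf1 had none. This list includes Pgr itself, which had a start peak in replicate 2 only. Of 8 genes of the progesterone list 5 had one, led by Fkbp5, which is also in the glucocorticoid list, Foxo1 at 64.2 and Bcl6 at 59.4, while Ihh had none. All 4 genes of factors that work with estrogen receptor alpha in other tissues had one, with Gata3 at 54.0, Tfap2a at 50.6 and Tfap2c at 42.8. The median percentile was 81.0 in the glucocorticoid list, 61.2 in the aldosterone list, 44.1 in the progesterone list and 33.6 in the estrogen list, against 31.7 over all protein-coding genes. These lists were chosen with earlier results of these data known, so this comparison is not independent of the data. Whether the order of the lists follows that of the receptor genes was not tested.

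Of 18 genes of steroid synthesis and metabolism 5 had a start peak in both libraries, led by Srd5a1, a steroid reductase, at 98.9, Srd5a3 at 84.0 and H6pd at 74.6, and a median percentile of 2.56. The count was 8 without replicate 2 and 9 in the longer lists. Of 9 other receptors and binding proteins for steroids or related ligands 7 had a start peak in both libraries, led by Esrra at 99.6, Pgrmc2 at 91.8 and Paqr8 at 65.5, while Gper1, a membrane receptor for estrogen, had none. Of 42 other nuclear receptor genes 28 had one, led by Esrra, Nr2c2 at 99.0 and the clock gene Nr1d1 at 97.8.

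Among these 42, the genes nearest in start percentile over the 2 libraries were Nr1h2 (86.6 ± 4.60) and Rarg (88.1 ± 2.43) for Nr3c2, and Nr1h3 (87.6 ± 0.0426) and Rarg for Nr3c1 (SD, n = 2 each). For Esr1 the nearest was Nr5a1 (14.3 ± 8.76). The distance, taken as the Euclidean distance in percentile points, was 0.949 between Nr3c2 and Nr1h2, 8.44 between Nr3c1 and Nr1h3 and 8.49 between Esr1 and Nr5a1.

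**Figure D5:**
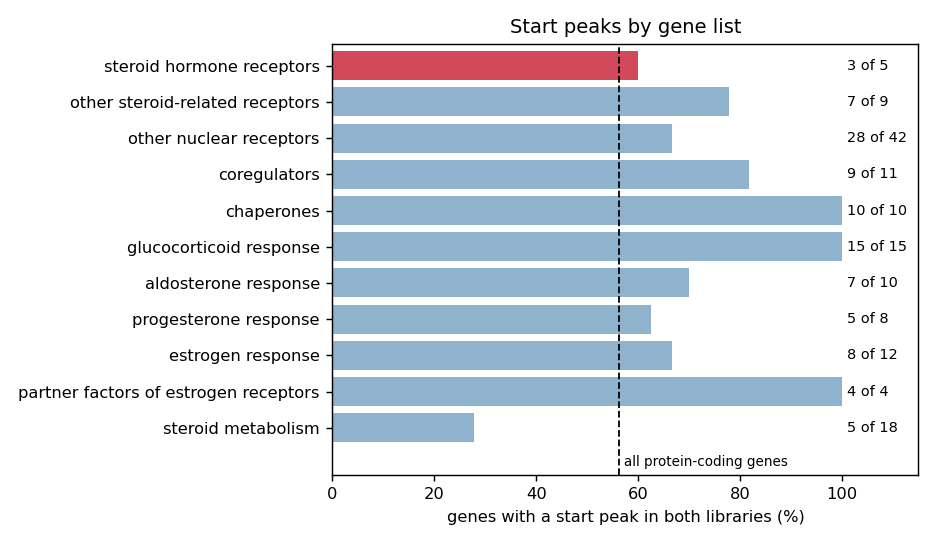
Percentage of genes with a start peak in both libraries, as bars from 0, for the 5 steroid hormone receptor genes and for each pathway list, with the count beside each bar and a dashed line at all protein-coding genes. The receptor genes, 3 of 5, stand close to the line at 56.2%, the chaperone, glucocorticoid and partner factor lists at 100%, and steroid metabolism, at 27.8%, is the list below the line.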

How the data were processed

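Peaks, footprints and per-site FDR values were deposited for each library. Per the deposited text, the authors derived them from its filtered alignments to mm10 and a mappability reference, without pooling replicates. For the aligner and callers, names and versions were not given in the sources used here. Peak heights are signal values that the authors deposited, and the low ones were whole multiples of 1 step per library within a tolerance of 0.05 of a step. The deposited FDR values, a kind of adjusted p-value, are listed up to 0.05. The footprint lists hold the constant deposited value 0.01, whose meaning is not stated in the sources used here. The shorter of the peak lists was used, with the longer as an alternative. Reads of the CAST/EiJ genome were placed on a C57BL/6J reference.

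Sites are merged overlapping peaks, shared when the libraries overlapped by at least 1 base. Positions were compared with GENCODE M21 and RefSeq GRCm38 patch 6, which share coordinates with mm10, in Python 3.11.15 with numpy 2.4.6, pandas 2.3.3 and matplotlib 3.10.9. The computation was tested on simulated peaks. A footprint counted when wholly inside a peak. There were 19 motif patterns. In each list the named genes are the 3 with the highest mean start percentile and, in lists of 12 or fewer, those with no start peak. Some genes chosen this way are not reported here. The members and lists were chosen with earlier results of these data known. With 1 group of 2 libraries, no p-value was computed. Alternatives were other start windows, flanks, peak lists, overlap rules, a 50% height filter and single libraries.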

Additional observations from a re-analysis of the deposited data

How the results depend on the processing

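Counts of shared sites depended on the peak list and on replicate 1. The 17 shared sites of the receptor genes became 34 with the longer lists and 9 with the stronger 50% of peaks, and 18 to 34 sites were counted when 1 library was left out. Those of Esr2, 3, became 1 with flanks of 10 kb and 5 with flanks of 100 kb. The receptor genes with a start peak numbered 3 to 5 when 1 library was left out, 3 without replicate 2 and 5 without replicate 1, and 2 with the stronger 50% of peaks. The number of receptor genes whose strongest shared site was at an own start was 1 of 4 with a start window of 250 bases. With a window of 1000 bases the order of Esr1 and Esr2 in start percentile turned round, 18.4 against 29.4. Footprint density, 9.91 per kb as a mean of both libraries, was 7.34 with the longer lists. The steroid metabolism list went beyond 1.5 times its count with the longer lists (9) and without replicate 2 (8), and the estrogen list with the stronger 50% (5). In all, 73 of 89 counts for single genes or lists stayed within 1.5 times, but most of the 89 are list counts. Of the 16 that did not, all except those of the steroid metabolism and estrogen lists were shared-site counts of receptor genes. With the longer lists, Nr3c1 went from 5 to 10 shared sites, Esr1 from 3 to 7, Esr2 from 3 to 5 and Pgr from 0 to 5. Of 30 start percentiles, 10 moved by at least the SD between libraries, all in settings that kept both libraries. The other 20 include every setting with 1 library left out. Leaving out 1 library cannot move a mean of 2 libraries by more than that SD, so those settings could not show a change in percentile. The read depth is unknown, so how weak a peak each library could detect was not tested. No paired analysis was possible because there is 1 group.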
